A study of Mus musculus with 18 samples.

Results

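Lungs of mice labelled β-arrestin 2 -/- and of wild type mice were compared after both had lived in chronic hypoxia. The comparison took the 3 libraries labelled β-arrestin 2 -/- in hypoxia and the 3 wild type libraries in hypoxia, 6 of the 18 libraries sequenced, and covered every gene of the deposited table of fragments per gene. By the labels all mice were C57BL/6 males, 8 to 12 weeks old at the start and 12 to 16 weeks old when the lungs were taken. Hypoxia was hypobaric and lasted 4 weeks at a simulated altitude of 18000 feet, for which the labels give a PAO2 near 70 mmHg. The matched normoxia libraries (3 of wild type and 3 labelled β-arrestin 2 -/-, at normal altitude and about 150 mmHg) and the 3 β-arrestin 1 -/- libraries in hypoxia were used only where named. The labels describe neither how the alleles were made nor to which C57BL/6 substrain or through how many generations the lines were bred.

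β-Arrestins attach to receptors of the G protein-coupled family once these are active, switch off G protein signalling and act as scaffolds for kinases. Chronic hypoxia in rodents narrows and remodels the small pulmonary arteries, with growth of smooth muscle and deposition of elastin and collagen in the vessel wall. Several of the genes described here lie in the mouse histocompatibility complex, called H2, on chromosome 17. Its class I genes encode proteins that show peptides from inside the cell to T cells, its class II genes encode those that show peptides taken up by antigen-presenting cells, and which H2 genes are transcribed differs between inbred strains by their haplotype.

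The 6 libraries held 23170995 to 25983090 estimated fragments, within the 16806806 to 25983090 of the whole series. Whether the libraries of a group stem from separate animals is not stated, so the p-values reflect spread between libraries, which may be technical. Levels are given in the unit CPM (a gene's share of the library's TMM-scaled total, not corrected for gene length) for libraries 0, 1 and 2 of a group in that order, group levels as mean ± SD (n = 3), and differences as log2 change ± SE from edgeR's quasi-likelihood test with Benjamini-Hochberg adjustment over 15388 genes. A gene is called where that adjusted p is under 0.05. Whole lung was sequenced, so fewer cells of a type and less RNA per cell cannot be told apart. Of 8 lung markers 6 could be tested (Sftpc and Scgb1a1 carried no estimate in the deposited table), none was called, and their summed level was 11730 to 12670 CPM in wild type and 10500 to 12700 CPM in the labelled libraries.

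The targeted gene did not bear out the label. Arrb2 (chromosome 11, 70432580 to 70440828, mm10, protein-coding) was at 33.5, 40.2 and 43.3 CPM in wild type hypoxia and at 30.7, 37.8 and 34.6 CPM in the libraries labelled β-arrestin 2 -/-. The groups overlapped, and the change was -0.18 ± 0.20 (adjusted p = 0.821). Arrb1, the other β-arrestin gene, was at 369 ± 57.9 and 364 ± 5.74 CPM (-0.02 ± 0.12, adjusted p = 0.986). The deposited counts are totals over a gene and do not separate its exons. The 3 libraries are therefore called the labelled libraries, and each direction is that of the label.

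Between labelled and wild type lung in hypoxia 142 of 15388 genes were called (0.923%), 53 higher (0.344%) and 89 lower (0.578%) in the labelled libraries, with a median size of 1.13 on the log2 scale. At an unadjusted p under 0.05 there were 1802 genes. The labelled and wild type libraries did not overlap for 141 of the 142 called genes, and for 17.5% of all genes tested. The authors' deposited table of Cuffdiff comparisons called 757 of the genes tested here, and 127 genes were called in the same direction in both, which is 89.4% of the 142 and 16.8% of the 757. The count depended on single libraries: it was 52 to 79 without any 1 of labelled libraries 0 to 2 or wild type libraries 1 and 2, and 298 without wild type library 0. Called genes were unevenly spread over the genome. Chromosome 17 held 36 of them among 766 genes tested (4.7%), chromosome 11, which carries Arrb2, held 24 of 1276 (1.88%), and each other chromosome with at least 50 genes tested held between 0.191% and 0.964%.

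**Figure D1:**
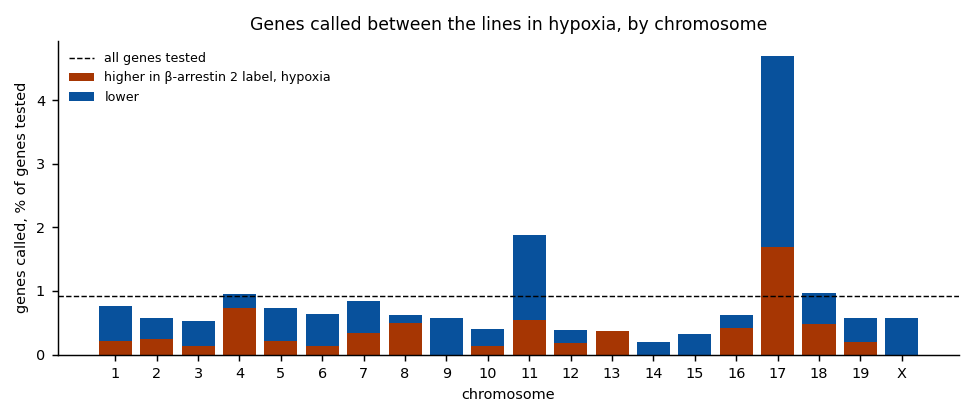
Percentage of genes tested that were called between the labelled and the wild type libraries in hypoxia, by chromosome (chromosomes with at least 50 genes tested); bars are split into genes higher and lower in the labelled libraries, and the dashed line is the 0.923% of all genes. Chromosome 17 reaches 4.7% and chromosome 11 reaches 1.88%.

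On chromosome 17 the called genes were bunched. In all 13 genes of the chromosome rose and 23 fell. From 20 to 40 Mb, bounds chosen after the values were seen, 34 of 404 genes tested were called (8.42%), 13 higher and 21 lower, and in the rest of the chromosome 2 of 362 (0.552%), both lower. With 1 library left out 11 to 18 genes of the chromosome rose and 11 to 26 fell, with 11 and 11 without labelled library 1 or 2. That stretch holds the H2 complex. Counts rest on the mm10 reference, and whether alleles that differ from it changed the counts of these genes was not tested. The genes with the largest rises lay inside the complex, among them a class II pseudogene, several class I genes and a complement gene.

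H2-Ea-ps (34342212 to 34344645) is the locus of the class II Eα chain, which C57BL/6 mice and others of haplotype b do not transcribe. Its counts were 0, 0 and 0 fragments in wild type hypoxia and 5227, 6436 and 5166 fragments in the labelled libraries. The labelled libraries in normoxia had 2196, 6081 and 3644 fragments, and the 12 libraries without this label, over both exposures, had 0 to 4. All 6 labelled libraries thus stood far above all 12 others, although the labels give C57BL/6 for all mice. Whether the labelled mice carry another haplotype at this locus was not tested. Against a floor of 3 fragments over the wild type group, the level of 235 CPM was at least 5710-fold higher (adjusted p = 1.22e-08). None of its stretches of 50 bases is found in transcripts of another gene in the GENCODE M21 annotation.

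Class I genes of the complex were the next highest. Gm8909 (36164444 to 36168537), a class I-like gene model, was at 0.695, 0.931 and 0.535 CPM in wild type and at 62.4, 73.0 and 70.4 CPM in the labelled libraries. H2-Q10 (35470089 to 35474563), which encodes a soluble class I protein made mainly by liver, was at 2.00, 1.48 and 5.77 CPM against 113, 121 and 133 CPM. H2-Q2 (35342333 to 35345722), another gene of the Q region, was at 2.61, 3.68 and 3.40 CPM against 55.3, 62.2 and 63.3 CPM. In all 3 genes each labelled library was more than 10 times any wild type library, with no overlap. Their log2 changes were 6.57 ± 0.36 for Gm8909 (adjusted p = 2.58e-08), 5.29 ± 0.62 for H2-Q10 (adjusted p = 0.000253) and 4.22 ± 0.33 for H2-Q2 (adjusted p = 3.86e-06).

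Further genes of the complex rose by smaller amounts than Gm8909 and H2-Q10. H2-Q1 rose by 4.17 ± 0.34 (adjusted p = 4.93e-06) to 13.7 ± 2.57 CPM, and H2-M2 by 4.46 ± 0.45 (adjusted p = 4.22e-05) to 11.3 ± 0.851 CPM. H2-K2, a transcribed pseudogene next to H2-K1, rose by 3.17 ± 0.27 (adjusted p = 8.69e-06), from 8.84 ± 1.40 to 79.6 ± 8.71 CPM. H2-T24 was at 50.4, 69.5 and 44.0 CPM in wild type and at 211, 176 and 151 CPM in the labelled libraries, a change of 1.71 ± 0.26 (adjusted p = 0.00369). Beside the class I genes, C4a (34809092 to 34823454), a copy of the complement gene C4b in the class III region, rose by 4.33 ± 0.37 (adjusted p = 8.69e-06), from 0.341 ± 0.0835 to 6.99 ± 1.63 CPM. The calls of these 9 genes (H2-Ea-ps, Gm8909, H2-Q10, H2-Q2, H2-Q1, H2-M2, H2-K2, H2-T24 and C4a) held with any of the 6 libraries left out. Reads of near-identical copies can be split between genes, so the level of each is uncertain where sequence is shared: 30.6% of the 50-base stretches of C4a are also in another gene's transcripts, as are 26.4% of Gm8909, 19.1% of H2-Q10, 16.1% of H2-Q2, 15% of H2-Q1 and 9.38% of H2-K2.

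Other members of the complex were lower in the labelled libraries. H2-K1 (33996012 to 34000333), the main class I gene of the K region, was at 973, 1211 and 1623 CPM in wild type and at 568, 690 and 662 CPM in the labelled libraries. H2-Aa (34282751 to 34287771), the α chain of the class II molecule A, was at 355, 508 and 665 CPM against 235, 264 and 225 CPM. H2-Ob (34238905 to 34245908), the β chain of a B cell protein that restrains peptide loading of class II, was at 11.1, 31.7 and 26.6 CPM against 3.94, 2.78 and 3.01 CPM. The groups did not overlap in any of these genes, and wild type library 0 was the lowest of its group in each. H2-Ob fell by 2.83 ± 0.35 (adjusted p = 0.000425) and stayed called with any library left out. H2-Aa fell by 1.08 ± 0.20 (adjusted p = 0.0132), which was lost without wild type library 2 (adjusted p = 0.0661) and without labelled library 0 (0.0674) or 2 (0.0815). H2-K1, chosen after its values were seen, fell by 0.99 ± 0.21 (adjusted p = 0.0287) and was called in the fit without wild type library 0 but in none of the other 5 (adjusted p = 0.078 to 0.154).

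Class II loading and a further class II gene followed the same direction. H2-DMb1, a subunit of the DM molecule that loads peptides onto class II, went from 62.7 ± 16.1 to 33.2 ± 2.86 CPM (-0.92 ± 0.17, adjusted p = 0.0174). That call held without wild type library 0 or 1 and was lost without wild type library 2 (adjusted p = 0.0897) and without labelled library 0 (0.0852), 1 (0.0506) or 2 (0.0996). Of its 50-base stretches 22.7% are shared with H2-DMb2. H2-Eb2, also chosen after its values were seen, was at 0.695, 5.55 and 4.13 CPM against 0.433, 0.392 and 0.305 CPM (-3.18 ± 0.65, adjusted p = 0.0263), with wild type library 0 close to the labelled libraries, and was called in the fit without that library but in none of the other 5 (adjusted p = 0.0922 to 0.144). On the list of 31 genes of dendritic cells and of class II presentation 4 fell and 0 rose, with a median of -0.55 beside -0.008 over all genes tested. Of all genes tested 0.578% fell and 0.344% rose. The other called members were H2-Ob, H2-Aa and Ccl22, a chemokine of dendritic cells and macrophages, which went from 6.87, 9.19 and 13.3 CPM to 2.77, 3.10 and 3.18 CPM with no overlap (-1.70 ± 0.28, adjusted p = 0.00662) and stayed called with any library left out. Without wild type library 0 10 of the 31 fell, against 2 without labelled library 0 or 2 or wild type library 2. In the list of 23 class I genes 5 rose and 1 fell, beside the same shares of all genes tested. The median was 0.08, and 5 rose with any library left out.

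Marker lists of immune cells were set beside these genes, in a comparison that called 0.923% of all genes tested. Of 28 B and plasma cell genes 0 were called, with a median of -0.92 and a summed level of 725.5 to 1052 CPM in wild type against 658.3 to 739.5 CPM in the labelled libraries. None of 39 T and NK cell genes was called (191.5 to 280.7 CPM against 184.7 to 227.3 CPM). The summed dendritic cell and class II list was 3095 to 5414 CPM in wild type and 2795 to 3306 CPM in the labelled libraries, and these ranges overlapped. The part of cell numbers in the lower class II genes was not tested. Dnase1l3, a DNase secreted by dendritic cells and macrophages, also fell, by 2.47 ± 0.38 (adjusted p = 0.00413, 4.91 ± 2.30 to 0.887 ± 0.216 CPM). Cx3cr1, the fractalkine receptor of monocytes and macrophages, went from 12.6 ± 5.47 to 4.83 ± 1.23 CPM (-1.38 ± 0.30, adjusted p = 0.0414). Dnase1l3 stayed called with any library left out, while Cx3cr1 was lost without wild type library 1 (adjusted p = 0.194) and without labelled library 0 (0.173), 1 (0.0629) or 2 (0.195).

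**Figure D2:**
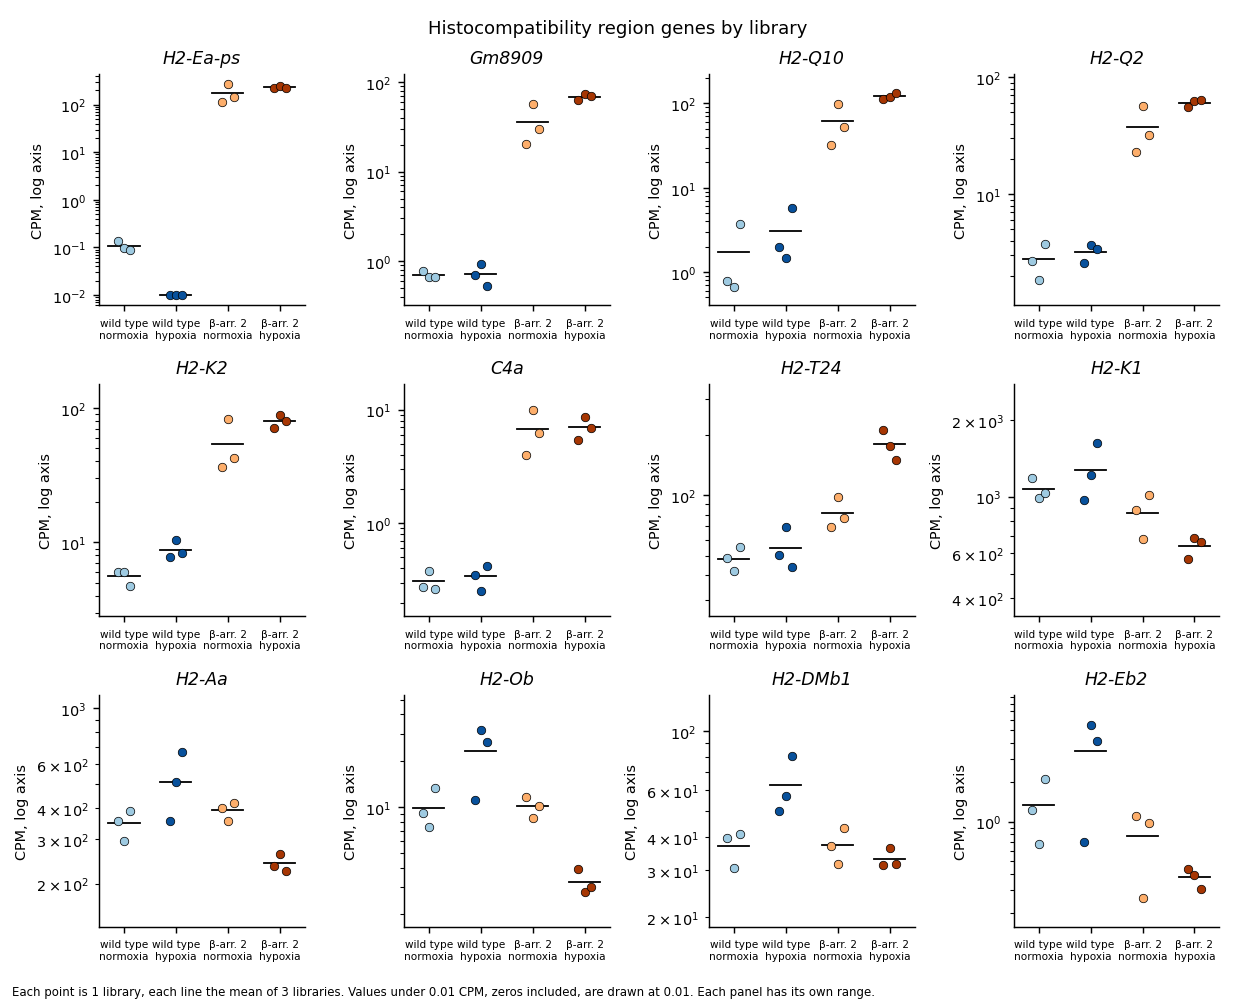
Level in CPM (log axis, its own range in each panel) of 12 genes of the H2 region in each library of wild type and of the β-arrestin 2 label (β-arr. 2), in normoxia and hypoxia; points are libraries, lines are means of 3, and values of 0 are drawn at 0.01. The first 6 genes are high in all 6 labelled libraries, H2-T24 is highest in labelled hypoxia, and the last 5 are lowest on average in labelled hypoxia.

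Since neighbouring H2 genes moved in opposite directions, the promoters of 1 gene that rose (H2-Q10) and of 3 that fell (H2-K1, H2-Ob and H2-Aa) are printed to show how alike they are, from RefSeq on GRCm38.p6 (whose starts can differ from the deposited ones), from 250 bases before to 50 after the start, 5′ to 3′ on the gene's strand. They lie at chr17:35469839-35470138 (H2-Q10, plus strand), chr17:34000284-34000583 (H2-K1, minus), chr17:34238655-34238954 (H2-Ob, plus) and chr17:34287774-34288073 (H2-Aa, minus). Capitals mark GATTGG or its reverse complement CCAATC, the letters at the core of the Y box of class II promoters, searched on both strands with a motif chosen after the values were seen.
H2-Q10: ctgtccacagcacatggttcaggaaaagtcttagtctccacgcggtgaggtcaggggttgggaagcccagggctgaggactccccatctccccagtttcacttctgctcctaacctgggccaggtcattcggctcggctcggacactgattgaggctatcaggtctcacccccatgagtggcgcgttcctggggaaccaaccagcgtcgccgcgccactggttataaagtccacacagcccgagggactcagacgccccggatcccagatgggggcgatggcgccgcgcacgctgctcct
H2-K1: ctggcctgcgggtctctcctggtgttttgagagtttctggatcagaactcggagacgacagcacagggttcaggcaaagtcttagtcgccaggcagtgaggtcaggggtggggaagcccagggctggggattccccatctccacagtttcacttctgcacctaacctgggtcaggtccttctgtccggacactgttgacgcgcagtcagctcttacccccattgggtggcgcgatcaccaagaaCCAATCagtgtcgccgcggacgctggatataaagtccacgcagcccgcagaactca
H2-Ob: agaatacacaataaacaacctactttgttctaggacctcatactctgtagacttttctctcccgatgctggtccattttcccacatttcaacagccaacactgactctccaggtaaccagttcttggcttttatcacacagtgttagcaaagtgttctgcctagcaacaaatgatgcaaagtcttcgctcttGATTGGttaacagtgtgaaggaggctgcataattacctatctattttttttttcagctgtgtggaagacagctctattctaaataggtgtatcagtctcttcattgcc
H2-Aa: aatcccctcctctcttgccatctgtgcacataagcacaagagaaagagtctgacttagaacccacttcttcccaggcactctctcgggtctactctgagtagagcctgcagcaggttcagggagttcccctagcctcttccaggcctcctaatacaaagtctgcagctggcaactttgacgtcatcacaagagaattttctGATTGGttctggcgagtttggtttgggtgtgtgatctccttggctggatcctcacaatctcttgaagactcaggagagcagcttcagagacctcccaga
The promoters of the class I genes H2-Q10 and H2-K1 were identical at 59.7% of aligned positions, gaps counted, those of the class II genes H2-Ob and H2-Aa at 50.4%, and the 4 pairs of a class I with a class II gene at 46.6% to 49.6%. The motif stood in H2-Ob at -58, in H2-Aa at -49 and in H2-K1 at -6 (first base, with no position 0), and H2-Q10 did not hold it in this window. These positions depend on the annotated start, that of H2-K1 above all. Both class II genes shown fell, and the only gene shown that rose is of class I. Class and direction therefore cannot be told apart in these promoters, and those of other H2 genes are not shown. A link of the motif with the direction of change was not tested. The letters occur in 5292 of 32851 promoters of the same length (16.1%), and 93 of the 142 called genes have a promoter in the table. These are letters of the reference genome, not of the animals sequenced.

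Outside the H2 genes chromosome 17 held further large differences. Atp6v0c (24163865 to 24169429), the proteolipid subunit of the vacuolar proton pump, was at 25.1, 27.3 and 29.3 CPM in wild type and at 4.33, 4.43 and 4.36 CPM in the labelled libraries. Each group was tight and they lay far apart, with a fall of 2.64 ± 0.13 (adjusted p = 1.22e-08). Other genes of the stretch, chosen after their values were seen, changed by less. Glo1, the glyoxalase that detoxifies methylglyoxal, rose from 42.0 ± 1.5 to 93.3 ± 3.81 CPM (1.15 ± 0.13, adjusted p = 0.000174). Rnps1, an RNA-binding protein of the splicing machinery, fell from 15.6 ± 1.26 to 8.16 ± 0.525 CPM (-0.94 ± 0.11, adjusted p = 0.000253). Hmga1, an architectural chromatin protein, fell from 8.33 ± 0.996 to 3.94 ± 0.451 CPM (-1.08 ± 0.17, adjusted p = 0.00536). All 4 calls held with any library left out, though 55.0% of the stretches of Hmga1 are shared with its copy Hmga1b and 10.8% of those of Atp6v0c with pseudogenes.

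Lama1, the α1 chain of laminin, lies outside the bunched stretch at 67697265 to 67822645. It went from 5.16 ± 1.64 to 1.54 ± 0.406 CPM (-1.75 ± 0.29, adjusted p = 0.00804), lost without labelled library 1 (adjusted p = 0.0524) and at 0.05 without library 2. Rps18, a ribosomal protein gene inside the H2 complex, was at 334, 447 and 583 fragments in wild type hypoxia and at 2, 2 and 1 in the labelled libraries (-7.95 ± 1.25, adjusted p = 0.00474). Its values are uncertain, since 23.7% of its 50-base stretches occur in other genes' transcripts, pseudogenes among them. In the authors' comparison Rps18 was not called in hypoxia (Cuffdiff q = 0.237).

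**Figure D3:**
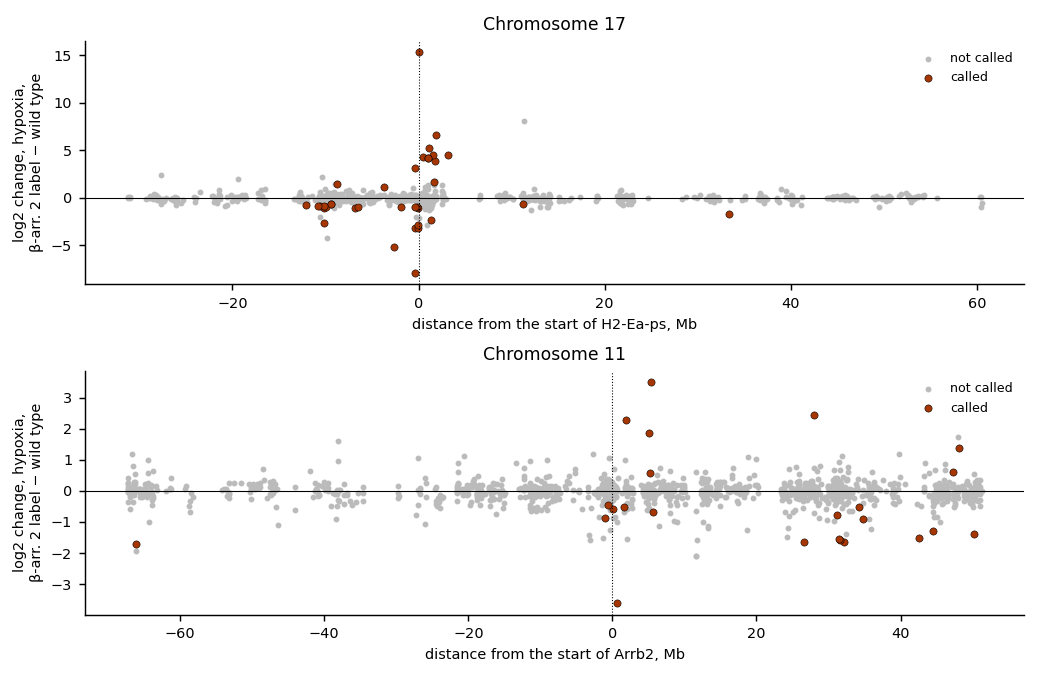
Log2 change in hypoxia (labelled minus wild type libraries) of every gene tested on chromosome 17, by distance in Mb from the start of H2-Ea-ps, and on chromosome 11, by distance from the start of Arrb2; dark points are called genes. Called genes on chromosome 17 gather around and before H2-Ea-ps, and on chromosome 11 they lie close to Arrb2 and farther along. The fitted value of H2-Ea-ps (15.4) is set against counts of 0 and is no bound.

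Chromosome 11 was examined next because it carries Arrb2. In stretches of 5 Mb of this chromosome, chosen after the values were seen, the share of called genes varied. It was 4.76% from 70 to 75 Mb (4 of 84), which holds Arrb2, and 4.44% from 75 to 80 Mb (4 of 90). Farther along it was 0 of 67 from 80 to 85 Mb, 4.35% from 100 to 105 Mb (5 of 115) and 8.33% from 110 to 115 Mb (2 of 24). No gene was called in any stretch from 5 to 65 Mb. Within 5 Mb of Arrb2 6 of 174 genes tested were called (3.45%), 1 higher and 5 lower. The higher was Xaf1, an interferon-inducible antagonist of inhibitors of apoptosis, at 15.2, 20.8 and 24.9 CPM in wild type and 118, 95.1 and 84.9 CPM in the labelled libraries. The groups were well apart (2.29 ± 0.22, adjusted p = 2.32e-05), and the call held with any library left out. Xaf1 was the only called member of 46 interferon-stimulated genes tested, whose median was 0.00. Nlrp1a, an inflammasome sensor, was close to the limit of detection, at 0.577 ± 0.210 against 0.0392 ± 0.0679 CPM (-3.62 ± 0.73, adjusted p = 0.0254). Cxcl16, a chemokine gene beside Arrb2, went from 107 ± 18.3 to 71.9 ± 6.45 CPM (-0.57 ± 0.11, adjusted p = 0.0228), and 16.9% of its stretches are shared with the overlapping gene Zmynd15. Tmem88, an inhibitor of Wnt signalling, changed by -0.88 ± 0.19 (adjusted p = 0.0397), Pitpnm3, a phosphatidylinositol transfer protein, by -0.50 ± 0.11 (adjusted p = 0.0298) and Kctd11, an adaptor of a ubiquitin ligase, by -0.47 ± 0.10 (adjusted p = 0.0266). All 5 lower genes lost their calls without wild type library 2 (adjusted p = 0.0661 to 0.162) and without labelled library 0 (0.0836 to 0.142). Further losses came without labelled libraries 1 and 2 for Cxcl16 (0.0547 and 0.0815), Tmem88 (0.0875 and 0.191) and Kctd11 (0.0957 and 0.144), without labelled library 1 for Pitpnm3 (0.151) and without labelled library 2 for Nlrp1a (0.128). Tmem88, Pitpnm3 and Nlrp1a were also lost without wild type library 1 (0.147, 0.146 and 0.0942) and Kctd11 without wild type library 0 (0.0617).

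Of the 24 called genes of chromosome 11, 7 were also called in normoxia in the same direction and 1, Tmem88, in the opposite one. The 7 were Xaf1, Nlrp1a and Kctd11 near Arrb2 and 4 genes farther away. Tlcd2, a protein that acts on membrane phospholipid composition, rose from 1.49 ± 0.288 to 5.49 ± 1.00 CPM (1.88 ± 0.24, adjusted p = 0.000524). Sp6, a zinc finger transcription factor, fell from 15 ± 1.31 to 4.75 ± 0.721 CPM (-1.65 ± 0.20, adjusted p = 0.00037), but 86.6% of its stretches are shared with Gm11532. Meox1, a homeobox factor of mesoderm, fell from 30.6 ± 1.93 to 10.5 ± 2.23 CPM (-1.54 ± 0.18, adjusted p = 0.00027). Cd300lg, a receptor of capillary endothelium, fell from 9.13 ± 1.22 to 3.03 ± 0.366 CPM (-1.59 ± 0.23, adjusted p = 0.00229). In normoxia their changes were 1.55, -1.41, -1.22 and -2.76, all called. Doc2b, a calcium sensor of vesicle release, was different: it was at 0.956, 0.339 and 0.956 CPM in wild type hypoxia and 4.38, 9.45 and 12.0 CPM in labelled hypoxia (3.51 ± 0.55, adjusted p = 0.00474), while in normoxia it was at 12.5 ± 8.84 CPM in wild type and 4.48 ± 1.17 CPM in the labelled libraries (-1.48 ± 0.47, adjusted p = 0.0574). The calls in hypoxia of these 5 genes held with any library left out, but that of Doc2b was lost with limma on log2 FPKM at a pseudocount of 1 without a minimum. Lif, a cytokine gene at the other end of the chromosome, went from 10.2 ± 5.73 to 3.12 ± 1.27 CPM (-1.71 ± 0.38, adjusted p = 0.046) and was lost without wild type library 2 (adjusted p = 0.235) and without labelled library 0 (0.189), 1 (0.0506) or 2 (0.195).

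Chromosome 4 was not set apart by its share, since 9 of 947 genes were called (0.95%), beside 0.923% of all genes tested. Chromosome 18 held 4 of 415 (0.964%), with 2 called in the same direction in both exposures. On chromosome 4, 3 genes were called in the same direction in both exposures. Another 3, chosen after their values were seen, were called in opposite directions: Slc6a9, a glycine transporter, at 0.49 in hypoxia and -0.42 in normoxia, Tle1, a transcriptional corepressor, at 0.58 and -0.71, and Tnfrsf1b, a receptor of tumour necrosis factor, at -0.42 and 0.32. In hypoxia Tnfrsf1b was called in none of the 6 fits that left out 1 library (adjusted p = 0.0526 to 0.154), and Slc6a9 and Tle1 were lost without wild type library 1 or 2 and labelled library 1 or 2 (0.0575 to 0.181). Hmgn2, a nucleosome-binding protein, was at 2.91, 2.58 and 2.25 CPM in wild type and at 12.1, 10.8 and 8.28 CPM in the labelled libraries (2.01 ± 0.18, adjusted p = 1.49e-05). The β-arrestin 1 -/- libraries in hypoxia were also above the same wild type libraries, by 1.89 (adjusted p = 5.58e-05), and did not differ detectably from the labelled ones (0.12, adjusted p = 0.706). Rps6ka1, a kinase acting after ERK, rose by 1.14 ± 0.11 (adjusted p = 3.61e-05) and by 0.86 in the β-arrestin 1 -/- libraries (adjusted p = 0.00152), and Cep85, a centrosomal protein, rose by 1.06 ± 0.15 (adjusted p = 0.00229), beside 0.48 in the β-arrestin 1 -/- libraries (adjusted p = 0.319). Rps6ka1 and Cep85 were chosen after their values were seen. The calls of Hmgn2, Rps6ka1 and Cep85 held with any library left out, and 25.4% of the stretches of Hmgn2 are shared with copies.

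Over the whole genome, genes of the extracellular matrix formed the largest group of falls among the lists examined. Of 47 collagen and matrix genes 8 were lower in labelled than in wild type hypoxia and 0 were higher, beside 0.578% and 0.344% of all genes tested. The list's median was -0.40, beside -0.008 over all genes tested. With 1 library left out 3 to 9 fell, 3 without labelled library 2, 4 without labelled library 1 or wild type library 1 and 5 without labelled library 0 or wild type library 2. The labelled libraries lay below all wild type libraries for 28 of the 47 and above for 2, beside 9.07% and 8.39% of all genes. The summed level of the list was 19800 to 21550 CPM in wild type and 15120 to 17790 CPM in the labelled libraries.

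Of the called matrix genes 3 act in the elastic fibre. Eln, which encodes elastin, was at 1261, 877 and 696 CPM in wild type and at 251, 414 and 310 CPM in the labelled libraries. Loxl1, the enzyme that crosslinks elastin, was at 195, 190 and 195 CPM against 68.5, 86.2 and 73.6 CPM. Fbln5, a protein that guides elastic fibre assembly, was at 190, 212 and 213 CPM against 148, 154 and 135 CPM. No labelled library reached a wild type library in any of the 3 genes, and the gap was narrowest for Fbln5. Eln fell by 1.54 ± 0.24 (adjusted p = 0.00512) and Loxl1 by 1.34 ± 0.16 (adjusted p = 0.000253), calls that held with any library left out. Fbln5 fell by 0.49 ± 0.11 (adjusted p = 0.0399) and was called in the fit without wild type library 0 but in none of the other 5 (adjusted p = 0.11 to 0.195). Other elastic fibre genes of the list were not called: Fbn1, which encodes fibrillin 1, was at -0.74 (adjusted p = 0.083), Mfap5, a microfibril protein, at -0.74 (0.0785), Emilin1, which lies between elastin and microfibrils, at -0.36 (0.255), Lox, another crosslinking enzyme, at -0.29 (0.854), Ltbp2, which binds fibrillin, at -0.03 (0.977) and Mfap4, a further microfibril protein, at 0.03 (0.984).

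Matricellular and collagen genes changed in the same direction. Spon2, a secreted spondin of the matrix, was at 26.9, 17.6 and 11.9 CPM in wild type and at 1.86, 4.2 and 4.62 CPM in the labelled libraries. Tnc, which encodes tenascin C of remodelling arteries, was at 22.8, 20.3 and 37.9 CPM against 12.1, 9.22 and 8.80 CPM. Col3a1, the chain of type III collagen, was at 658, 863 and 816 CPM against 351, 392 and 304 CPM. Again the groups did not overlap. Spon2 fell by 2.4 ± 0.38 (adjusted p = 0.00474) and held throughout. Tnc fell by 1.43 ± 0.24 (adjusted p = 0.00735), lost without labelled library 1 (adjusted p = 0.0506) or 2 (0.0545). Col3a1 fell by 1.16 ± 0.25 (adjusted p = 0.0341), Timp1, an inhibitor of matrix metalloproteinases, by 1.31 ± 0.26 (adjusted p = 0.023) and Col5a3, a chain of type V collagen, by 1.37 ± 0.25 (adjusted p = 0.0141). With 1 library left out Col3a1 was called only without wild type library 0 (adjusted p = 0.0932 to 0.168 in the other 5 fits). Timp1 was lost without wild type library 1 or 2 and labelled library 0 or 2 (0.0502 to 0.118), and Col5a3 without wild type library 1 and labelled library 1 or 2 (0.0541 to 0.0915). Fbln5, Col3a1, Timp1 and Col5a3 fell outside the rule for named genes and were chosen after their values were seen, as all remaining called members of the list. In the authors' comparison Timp1 was not called (Cuffdiff q = 0.277), and the other called members of the list were, in the same direction.

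**Figure D4:**
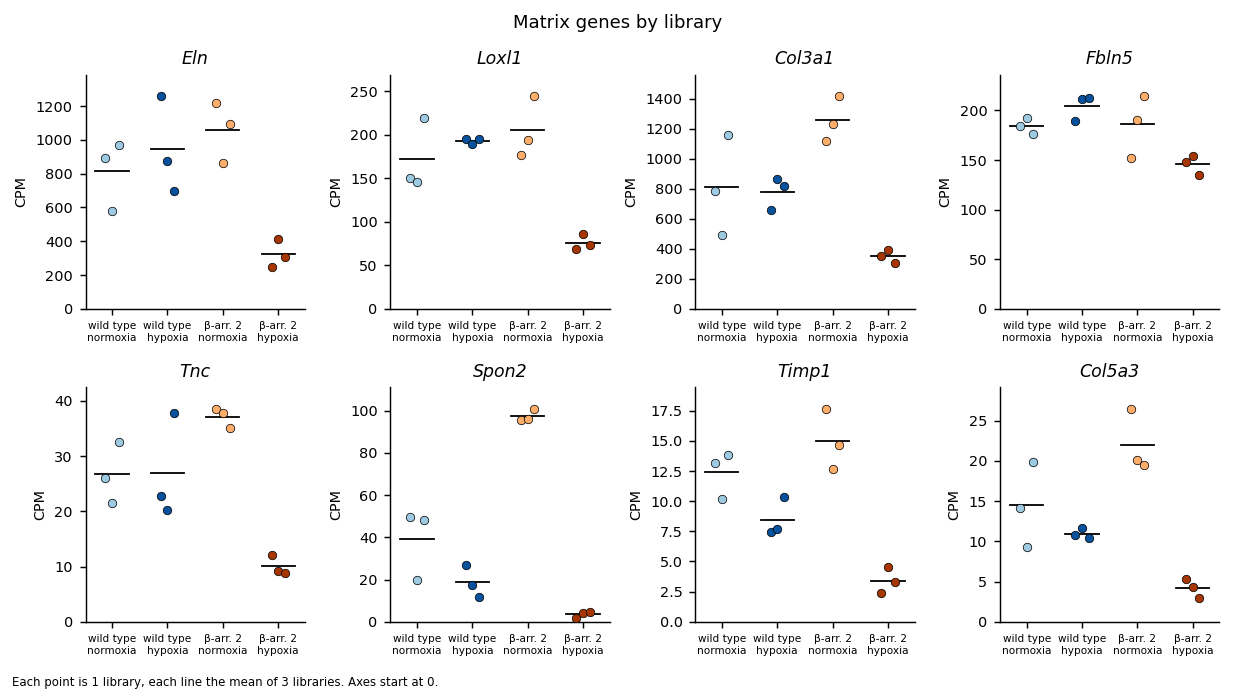
Level in CPM (axes from 0) of the 8 called matrix genes in each library of wild type and of the β-arrestin 2 label (β-arr. 2), in normoxia and hypoxia; points are libraries and lines are means of 3. In each gene all 3 labelled hypoxia libraries are below all wild type hypoxia libraries, and the labelled normoxia mean is at or above the wild type normoxia mean.

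Genes around the transforming growth factor β (TGF-β) pathway showed isolated changes. Itgb6, the β6 integrin chain of epithelium that activates latent TGF-β, was at 110, 131 and 84.6 CPM in wild type and at 21.2, 36.6 and 36.8 CPM in the labelled libraries. The groups were far apart (-1.78 ± 0.22, adjusted p = 0.000328), and the call held with any library left out. Tgfb2, a ligand of the pathway, went from 48.7 ± 9.91 to 27.3 ± 2.4 CPM (-0.83 ± 0.18, adjusted p = 0.0415) and was the only called member of 43 BMP and TGF-β genes, whose median was -0.01. Mmp3, a metalloproteinase, went from 34.6 ± 6.49 to 19.5 ± 3.45 CPM (-0.83 ± 0.19, adjusted p = 0.0482) and was the only called gene among 21 matrix proteases (median -0.42). Tgfb2 was called in the fit without wild type library 0 and in none of the other 5 (adjusted p = 0.131 to 0.19), and Mmp3 in none of the 6 (0.056 to 0.2). Marker lists of cells that make matrix were set beside these genes, and the part of cell numbers in the lower matrix genes was not tested. None of 23 fibroblast genes was called, beside 0.923% of all genes tested. Their summed level was 14080 to 15060 CPM in wild type and 15740 to 16800 CPM in the labelled libraries. Of 23 smooth muscle contractile and 18 pericyte genes 0 were called, with medians of -0.10 and 0.01. The mesothelial list, also without a call among 20 genes, summed to 2678 to 3111 CPM against 2263 to 2778 CPM.

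Of 40 vessel tone genes 1 was called, beside 0.923% of all genes tested. The labelled libraries lay above all wild type libraries in 8 of the 40 and below in 3, beside 8.39% and 9.07% of all genes. The list summed to 5331 to 6937 CPM in wild type and 7256 to 7653 CPM in the labelled libraries. The called gene was Agtr1a, the type 1 angiotensin II receptor that couples to both G proteins and β-arrestins. Agtr1a was at 28.1, 21.3 and 22 CPM in wild type and 32.9, 39.2 and 38.2 CPM in the labelled libraries. The labelled libraries were all higher (0.63 ± 0.12, adjusted p = 0.0214). The Agtr1a call was lost without wild type library 1 or 2 and labelled library 1 or 2 (adjusted p = 0.0973 to 0.103). The list of 38 endothelial genes had 0 calls and a median of 0.00. Klf2, a shear-induced transcription factor of endothelium that stands on the list of immediate early genes, rose from 388 ± 46.4 to 663 ± 82.1 CPM (0.77 ± 0.14, adjusted p = 0.0132), and was lost without wild type library 1 or 2 and labelled library 1 or 2 (0.0596 to 0.0671). In the β-arrestin 1 -/- libraries Klf2 was 0.80 above the same wild type libraries (adjusted p = 0.0264).

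Lyve1, a hyaluronan receptor of lymphatic endothelium and some macrophages, was at 142, 153 and 107 CPM in wild type and at 208, 253 and 247 CPM in the labelled libraries. No labelled library was as low as any of wild type (0.82 ± 0.16, adjusted p = 0.0244). It was the only called gene of 10 lymphatic genes tested (median -0.13), and its call was lost without wild type library 2 (adjusted p = 0.115) and without labelled library 1 (0.11) or 2 (0.106). In normoxia Lyve1 went the other way, from 921 ± 109 to 414 ± 88.4 CPM (-1.15 ± 0.16, adjusted p = 0.00183). Pnpla2, the lipase that starts the breakdown of stored fat, rose by 0.64 ± 0.12 (adjusted p = 0.0122), and Ucp2, a mitochondrial carrier and the only called gene of 27 on the list of fatty acid oxidation, by 0.50 ± 0.11 (adjusted p = 0.0455). Ces1g, a carboxylesterase, rose by 1.16 ± 0.21 (adjusted p = 0.0141). Gyg, which primes glycogen synthesis, fell from 144 ± 12.7 to 85.4 ± 2.88 CPM (-0.75 ± 0.10, adjusted p = 0.000692) and held with any library left out. Pnpla2 was lost without wild type library 1 or 2 and labelled library 1 and at 0.05 without library 2 (adjusted p up to 0.056), Ces1g without wild type library 1 and labelled library 1 or 2 (0.0529 to 0.0802), and Ucp2 in all 6 fits (0.0777 to 0.156). The summed adipocyte list was 601.2 to 811.1 CPM in wild type and 1116 to 1265 CPM in the labelled libraries, with Pnpla2 the only call among 21 genes. Whether fat in the samples has a part in these values was not tested.

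Several lists of programmes known from hypoxic lung held no called gene, beside 0.923% of all genes tested. At that share, 0 calls in a list of 16 to 40 genes does not set the list apart from all genes. Of 40 hypoxia-inducible factor targets and glycolytic genes 0 were called (median 0.10), although their summed level, 6700 to 7629 CPM in wild type and 8502 to 8931 CPM in the labelled libraries, did not overlap. Of 40 inflammatory cytokine and adhesion genes 0 were called (median -0.62), and the labelled libraries lay below all wild type libraries in 16 and above in 0, beside 9.07% and 8.39% of all genes tested. None of 37 cell cycle genes (median -0.27), 28 club and secretory airway genes (-0.11), 21 motile cilia genes (-0.04), 22 endoplasmic reticulum stress genes (-0.07) or 16 core clock genes (0.29) was called. Heart muscle of the pulmonary veins is part of mouse lung, and the cardiac list summed to 1461 to 2583 CPM in wild type and 2392 to 4298 CPM in the labelled libraries, with 0 of 32 genes called. Of 13 skeletal muscle genes Mybpc2, a myosin-binding protein, fell (-1.45 ± 0.24, adjusted p = 0.00804), a call lost without labelled library 2 (adjusted p = 0.0543), while Myh4, Mybpc1 and Pvalb of that list had no fragment in the 6 libraries.

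The same difference between the lines in normoxia, measured in 6 other libraries, gave 1460 called genes (9.49%). Of the 142 genes called in hypoxia 33 were also called in normoxia in the same direction, which is 23.2% of the hypoxia calls and 2.26% of the normoxia calls, and 15 were called in the opposite direction. The chromosomes differed in this. On chromosome 17, 31 of the 36 called genes had the same sign in normoxia, 20 were called there and none was called in the opposite direction. Of the 73 called genes outside chromosomes 17, 11 and 4, 23 had the same sign, 3 were called in the same direction and 11 in the opposite one. Outside chromosome 17 alone there were 106 called genes. Among these 42 had the same sign, 13 were called in the same direction and 15 in the opposite one. Over all genes tested the sign was the same for 41.7%.

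The difference between the 2 exposures was then tested itself, as the line difference in hypoxia minus that in normoxia. It was called for 931 genes (6.05%) over all genes (3.49% higher and 2.56% lower), for 75 of the 142, for 7 of the 36 on chromosome 17 and for 54 of the 73 outside chromosomes 17, 11 and 4. The test contains the hypoxia libraries by which the 142 genes were picked. Their shares can therefore lie above 6.05% through that choice alone. H2-Q10, H2-Q2, H2-K2, C4a and Atp6v0c had changes in normoxia of 5.14, 3.74, 3.26, 4.42 and -2.76, and for none of them was the difference called (adjusted p = 0.495 to 0.925). The class II genes H2-Ob and H2-Aa behaved otherwise: H2-Ob changed by 0.02 in normoxia and H2-Aa by 0.17, and the differences were -2.85 (adjusted p = 0.00615) and -1.25 (adjusted p = 0.0197). H2-Ea-ps, the locus of a class II chain, was high in the labelled libraries of both exposures. Among the matrix genes Eln changed by 0.38 in normoxia, Loxl1 by 0.26, Tnc by 0.47 and Spon2 by 1.32, of which that of Spon2 was called, and the differences ran from -3.71 for Spon2 to -1.60 for Loxl1, each called. Of the 47 matrix genes 12 had a lower and 1 a higher value in this test. The normoxia libraries differ in another respect: the summed cardiac list was 130.4 to 591.1 CPM in wild type normoxia and 706.0 to 8998 CPM in labelled normoxia, and the part of this in the normoxia values was not tested.

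**Figure D5:**
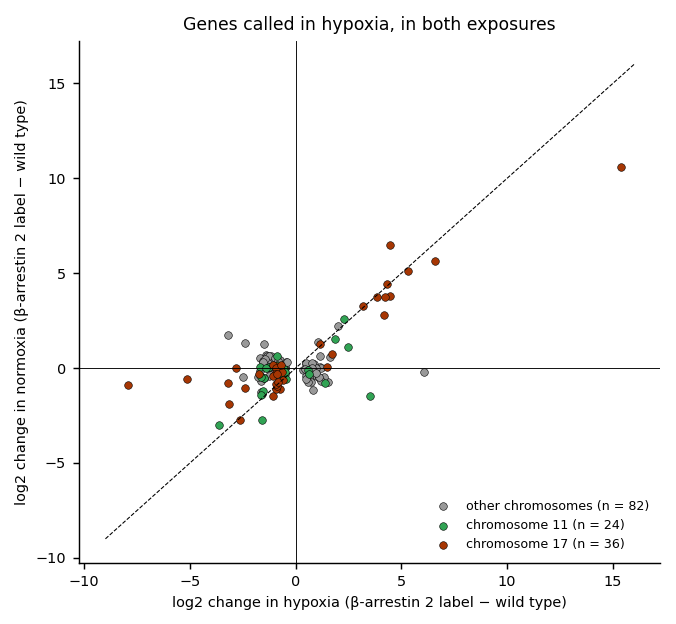
Log2 change between the labelled and wild type libraries in hypoxia (x axis) and in normoxia (y axis) for the 142 genes called in hypoxia, coloured by chromosome; the dashed line marks equal change. Genes of chromosome 17 with large changes mostly lie near that line on its upper right, and most genes of the other chromosomes lie near or across the horizontal axis.

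The β-arrestin 1 -/- libraries in hypoxia share the wild type libraries with this comparison, and only 31 genes (0.201%) were called between them and wild type. The labelled and β-arrestin 1 -/- libraries in hypoxia differed at 578 genes (3.76%). In that direct comparison H2-Q10 was 4.65 higher (adjusted p = 0.000449), Atp6v0c was at -2.39 (adjusted p = 2.53e-08), Loxl1 at -1.40 (adjusted p = 0.000105), Eln at -1.67 (adjusted p = 0.00147) and Itgb6 at -1.71 (adjusted p = 0.000362) in the labelled libraries. Tnc (-0.74, adjusted p = 0.1) and Col3a1 (-0.87, adjusted p = 0.0621) were not called there. Dnase1l3 was at -2.02 in the β-arrestin 1 -/- libraries against wild type (adjusted p = 0.0342), beside -2.47 in the labelled ones, and the 2 lines were not called different (-0.45, adjusted p = 0.543).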

How the data were processed

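Poly(A) RNA of whole lung (1 µg from about 30 mg of frozen tissue) went into unstranded libraries, per the labels' protocols, so overlapping antisense genes cannot be separated. FastQC, TopHat, Cuffdiff and the build mm10 are named in the submitters' processing notes, with versions not given in the sources used. The deposited table holds, for every gene and library, an estimated count of fragments (93.3% of values are whole within 1e-06) and an FPKM value that the authors scaled across libraries. From the deposited Cuffdiff comparisons only each q-value and the direction of its score entered. Cuffdiff put 0 in place of an estimate for 5 of 23356 features, which were left out. Coordinates are those deposited, on mm10.

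Estimated counts were rounded and fitted with edgeR 4.0.16 (R 4.3.3) over all 18 libraries in 6 groups: TMM scaling, filterByExpr, quasi-likelihood F-tests. The 3 hypoxia libraries a group limit precision, and counting floors cover counting error only. Alternatives were DESeq2 1.42.0, its size factors, limma 3.58.1 on log2 FPKM, filters, fewer groups, a replicate block and leaving libraries out. The comparison, gene lists and rule for named genes (both arrestin genes; the 12 largest rises and falls among non-overlapping called genes of mean log2 CPM 1 or more, without unnamed models; up to 4 called members per list, 5 per chromosome for the 2 richest chromosomes and 5 for the interaction; called genes within 5 Mb of Arrb2) were chosen with earlier results of these data known. Not every gene so named is printed, and some are not reported here. An E-box search planned for clock lists was not run, as no clock gene was called. Shared sequence is the share of a gene's 50-base stretches found in another gene's GENCODE M21 transcripts. The fits were tested on simulated data. Figures were drawn with matplotlib 3.10.9.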

Additional observations from a re-analysis of the deposited data

Results flagged for a closer look

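The named genes listed here were singled out because the difference between the labelled and wild type libraries in hypoxia, minus that in normoxia, passed its own test (edgeR, adjusted p = 0.00218 to 0.0489, n = 3 libraries a group). Values are that difference on the log2 scale, and no explanation was tested. The test contains the hypoxia libraries by which most of these genes were picked, so it is not independent of that choice.

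Genes of antigen presentation and immune cells with a lower difference were H2-Ob (-2.85), Ccl22 (-2.23), Dnase1l3 (-2.01), H2-Aa (-1.25) and H2-DMb1 (-0.92). Matrix genes and their neighbours in function were Spon2 (-3.71), Eln (-1.92), Tnc (-1.91), Loxl1 (-1.60), Lama1 (-1.44), Itgb6 (-1.29) and Tgfb2 (-1.18). Tmem88 was at -1.53, Mybpc2 at -1.52 and Gyg at -1.20.

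Genes with a higher difference were Doc2b (4.98), Lyve1 (1.97), Cd300lg (1.17), Ces1g (1.1), Pnpla2 (1.09), Ucp2 (1.06), Agtr1a (0.83) and Arrb1 (0.69). Arrb1 changed by -0.02 in hypoxia and by -0.70 in normoxia (adjusted p = 0.00435). Cd300lg was lower in the labelled libraries of both exposures, by 1.59 in hypoxia and by 2.76 in normoxia.

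Gfra2, a receptor of neurturin, at -1.62, Btbd3, a BTB-domain protein, at 1.29 and Nipal3, a magnesium transporter family member, at 1.13 were called in this test but not in hypoxia itself, where they were at -0.45 (adjusted p = 0.197), 0.51 (0.0558) and 0.34 (0.169). Rps18 at -7.06 is uncertain because of its copies.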

How the results depend on the processing

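The labelled and wild type libraries in hypoxia differed at 142 genes, those in normoxia at 1460, and the 2 differences differed at 931. In the same order DESeq2 called 481, 2753 and 1880 genes, a fit with only the groups compared 84, 2638 and 1540, and leaving out the 2 libraries of lowest total, an alternative chosen after seeing the data, 349, 1509 and 1491. In hypoxia the fit with only the groups compared kept 22 of the 53 higher and 38 of the 89 lower calls. Of 76 genes followed through the settings 31 lost their call there. Among them were H2-Aa (adjusted p = 0.0738), H2-K1 (0.07), Tnc (0.0553), Timp1 (0.0749), Lyve1 (0.0589) and Agtr1a (0.0967). Leaving out 1 library gave 52 (without labelled hypoxia library 2) to 298 (without wild type hypoxia library 0), 316 (without labelled normoxia library 0) to 1922 (without library 2), and 313 (without wild type normoxia library 1) to 2022 (without wild type hypoxia library 0). All other settings stayed within 1.5 times: DESeq2's size factors, no haemoglobin genes, no low-count filter and limma on log2 FPKM. The split into higher and lower genes moved from 53 and 89 to 56 and 55 with limma at a pseudocount of 1, and to 57 and 47 without its minimum.

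The shared replicate numbers gave correlations of deviations of 0.17, 0.05 and -0.05 in hypoxia, so they were not taken to pair libraries. A replicate block called 141, 1223 and 820 genes.

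Over 77 genes and 1221 alternative values 972 kept direction and side of the threshold, 241 lost the call, 3 gained it and 5 turned sign. Those 5 were all of Arrb1, not called and at -0.02: it was at 0.00, 0.00 and 0.00 with limma, 0.06 without wild type library 0 and 0.05 without library 1, the lowest being -0.14 without library 2. Of the 142 calls 41 held with any of the 6 libraries left out, 21 of them on chromosome 17. The causes were not tested. With 3 libraries a group and totals of 16806806 fragments or more, small changes of low genes cannot be told from the spread.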

Other observations

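Genes in these paragraphs were chosen after their values were seen and are given as values only. Among the called genes were 3 enzymes of proline metabolism. Pycr1, the last enzyme of proline synthesis, was at -1.39 in the labelled libraries in hypoxia (adjusted p = 0.0245), Aldh18a1, the first, at -0.69 (adjusted p = 0.0259), and Prodh, which starts proline breakdown, at 0.76 (adjusted p = 0.0278). Each of these calls was lost in 3 or more of the 6 fits that left out 1 library, Pycr1 in all but the fit without wild type library 0 (adjusted p = 0.056 to 0.142 in the others).

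Other called genes act on lipid mediators and foreign compounds. Hpgd, which inactivates prostaglandins, was at 536, 458 and 299 CPM in wild type hypoxia and at 765, 1018 and 995 CPM in the labelled libraries, without overlap (1.1, adjusted p = 0.00735), and the call held with any library left out but was lost in the fit with only the groups compared (adjusted p = 0.0738). Fmo1, a flavin monooxygenase, rose by 0.94 (adjusted p = 0.0103) and Abcg2, an efflux pump, by 1.04 (adjusted p = 0.0132). Fmo1 was lost without labelled library 1 (adjusted p = 0.0514) or 2 (0.0675), and Abcg2 without wild type library 1 (0.0602) or labelled library 2 (0.0703). Cysltr1, a leukotriene receptor, was at -0.85 (adjusted p = 0.0103), lost without wild type library 1 (0.0529) and labelled library 1 (0.0549) or 2 (0.0679). Mrc2, a collagen uptake receptor on chromosome 11, fell from 207, 212 and 222 CPM to 106, 117 and 121 CPM (-0.90, adjusted p = 0.00241) and held throughout.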
